A study of Mus musculus with 4 samples.

Results

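Chemically transformed C3H10T1/2 mouse embryo fibroblasts that had received no further treatment were profiled on 2 one-colour microarrays, untreated 1 and untreated 2, chosen as the arrays whose treatment label is none out of 4 arrays in all. The other 2 arrays, from transformed cells given diethyl maleate (DEM) at 0.25 mM, were not analysed here. All 4 samples had gone through the same transformation, with 3-methylcholanthrene (MCA) at 2.5 µg/ml for 2 days, the phorbol ester TPA at 100 ng/ml given repeatedly for 2 weeks, and then 4 weeks in normal medium. The culture flasks described in the labels contained transformed foci growing into a contact-inhibited monolayer, and the labels do not say whether foci were picked before RNA was made. They also do not say that the 2 arrays came from separate cultures, so the spread given below may be technical. No array of C3H10T1/2 cells before transformation was used, so the levels describe the transformed culture and not what transformation did.

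C3H10T1/2 is an immortal line from mouse embryos that grows as a flat, contact-inhibited sheet and forms dense foci after exposure to carcinogens, which made it a standard assay of chemical transformation. Its cells can also be turned into muscle, fat, cartilage or bone cells in culture, for which reason it is often described as a multipotent mesenchymal line. Fibroblasts in general make collagens, proteoglycans and the enzymes that process them, hold a contractile actin cytoskeleton, and respond to platelet-derived growth factor.

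A level is the log2 signal of a probe minus the 75th percentile of its array, so 0 is the signal below which 75% of all probes lie, and a gene was represented by its brightest probe. A gene was called detected when on each of the 2 arrays at least 1 of its probes, not always the same probe, carried the scanning software's well-above-background mark. Levels rank probes and not transcript amounts, and genes with several probes show how far the probes of a gene can differ. Why they differ was not tested. The probes of the collagen gene Col1a1 and of the fibronectin gene Fn1 are 60 bases long and lie in single messages, yet they read very differently. Their sequences are shown 5′ to 3′ in lower case, with no part singled out, for the 2 dimmer Col1a1 probes and all 3 Fn1 probes.
Col1a1 probe 1: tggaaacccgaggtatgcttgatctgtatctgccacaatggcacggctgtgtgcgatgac
Col1a1 probe 2: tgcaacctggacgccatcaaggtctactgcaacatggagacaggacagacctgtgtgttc
Fn1 probe 1: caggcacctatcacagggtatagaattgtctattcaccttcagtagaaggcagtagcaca
Fn1 probe 2: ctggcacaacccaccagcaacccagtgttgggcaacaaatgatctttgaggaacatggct
Fn1 probe 3: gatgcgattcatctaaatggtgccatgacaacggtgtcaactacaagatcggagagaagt

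Col1a1 probe 1 read -0.56 on untreated 1 and -0.06 on untreated 2, and probe 2 read 5.79 and 6.21. Both hold 53.3% G and C. Col1a1 probe 3, not shown, read 7.60 and 7.61. The 3 Fn1 probes read -1.74 and -1.96, 1.65 and 1.36, and 4.48 and 4.30, with 45.0%, 51.7% and 45.0% G and C. Among 5658 genes that had probes of different sequence, at least 1 of them marked on both arrays, the median range between the probes of a gene was 2.88 on the log2 scale, and it exceeded 4 in 1894 genes (33.5%). For 1134 of these genes (20.0%) another probe was not marked on either array. Where the same sequence was printed as several probes of a gene (82 sequences), the median range was 0.06. A gene not detected may therefore have been missed by its probes.

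Both arrays gave similar levels for most genes. Each held 61657 probe spots, of which 52.3% and 52.7% were well above background, and no spot was saturated. Of 308 negative control spots, 1 was marked on untreated 1 and 0 on untreated 2. Clone, predicted and accession-like names were set aside. Of the 19654 genes that remained, 12211 (62.1%) were detected on both arrays, 677 on 1 array and 6766 (34.4%) on neither. The share of 62.1% is the background for the list counts below, though the lists were chosen with earlier results of these data known. The median level was 1.14 over the detected genes, and the lowest marked level was -4.81 and -4.80 on the 2 arrays. The SD of the difference between the arrays was 0.34 over detected genes, 99.2% of them lay within 2-fold, and the median SD of a level was 0.14 (n = 2). The precision is limited by the number of arrays.

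**Figure D1:**
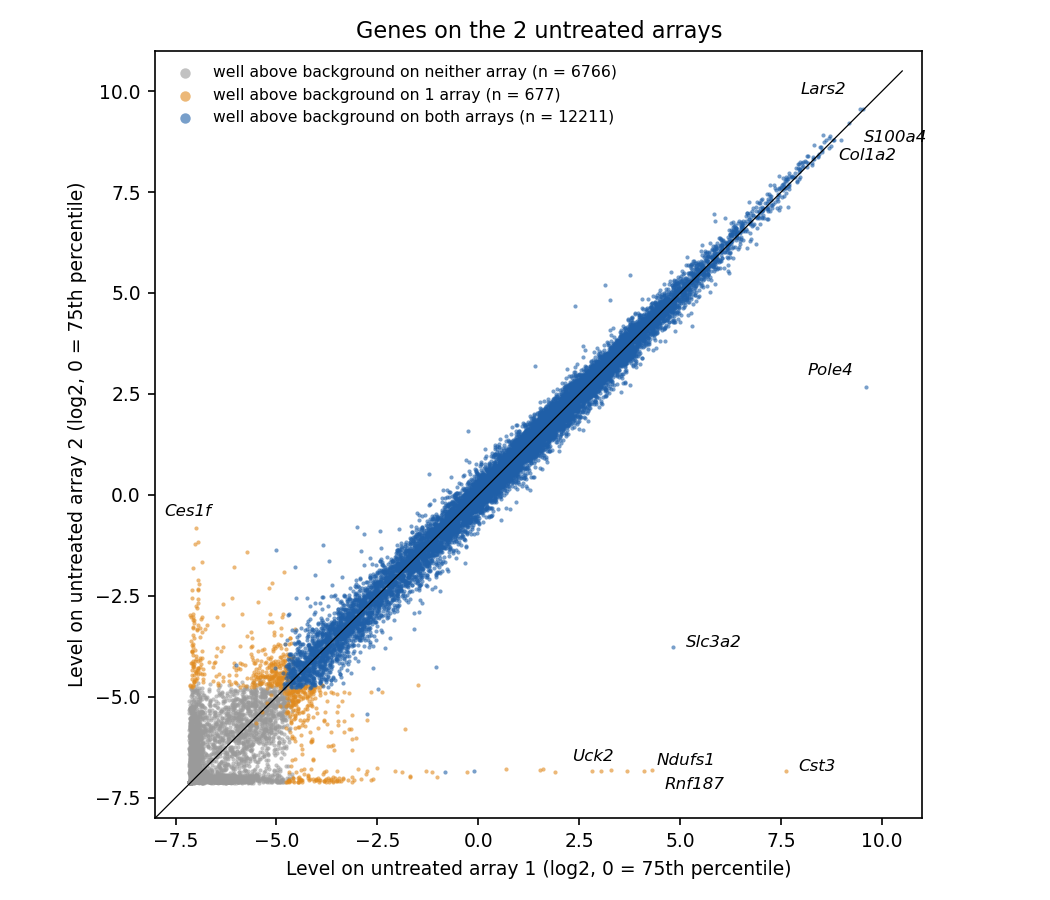
Level of each of the 19654 genes on untreated 1 (x axis) and untreated 2 (y axis), in log2 units with 0 at the 75th percentile of the array; each point is a gene, coloured by the number of arrays on which it was well above background, and the line marks equal levels. Most points follow the line, and a row of genes such as Cst3, Rnf187, Ndufs1 and Uck2 lies at the background of untreated 2 only.

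Some of the largest gaps between the arrays had a place on the slide. Among detected genes the widest gap was that of Slc3a2, the heavy chain of the cystine and large neutral amino acid transporters, at 4.82 and -3.77, while its other probe read -0.97 and -0.23. Pole4, a subunit of DNA polymerase epsilon, read 9.60 and 2.66, while its other probes read 1.84 and 1.69, and 0.80 and 0.66. Ccdc65 (-0.11 and -6.83), Scyl2 (-0.83 and -6.87) and Trim23 (-1.06 and -4.26) were also lower on untreated 2. In a block of spots near a corner of the array, within the first 40 of its 384 rows and chosen after the values were seen, 108 of 300 spots marked on untreated 1 were over 4-fold lower on untreated 2 (36%). Outside this area 346 of 31922 were (1.08%). The other way, 18 of 222 spots of the block marked on untreated 2 were over 4-fold lower on untreated 1 (8.11%). Outside it 474 of 32290 were (1.47%).

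Slc3a2, Ccdc65, Scyl2 and Trim23 had their brightest probe in that area, whereas Pole4 did not. Pole4 lay in a smaller patch, where 16 of 35 marked spots within 3 rows and columns were over 4-fold higher on untreated 1 as well. The others of the 10 genes furthest apart were Tnnt3 (-1.36 on untreated 2 and lower on untreated 1), Clca3b (-4.53 and -1.80), Phf21b (-2.75 and -5.44), Prss3 (-3.85 and -1.23) and Npnt (-2.49 and -4.80). Ccdc65, Tnnt3, Phf21b and Npnt count as detected through a different probe on each array. Of 50 genes marked on at least 1 array and over 16-fold apart, 22 lay in the area, 19 of these higher on untreated 1. They include Cst3, which encodes the protease inhibitor cystatin C (7.62 and -6.83), and Ndufs1, the largest subunit of respiratory complex I (4.09 and -6.85), each with a single probe. Values of these genes rest on 1 array. Without the area, 12179 genes of 19524 were detected and the 30 brightest genes were the same.

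**Figure D2:**
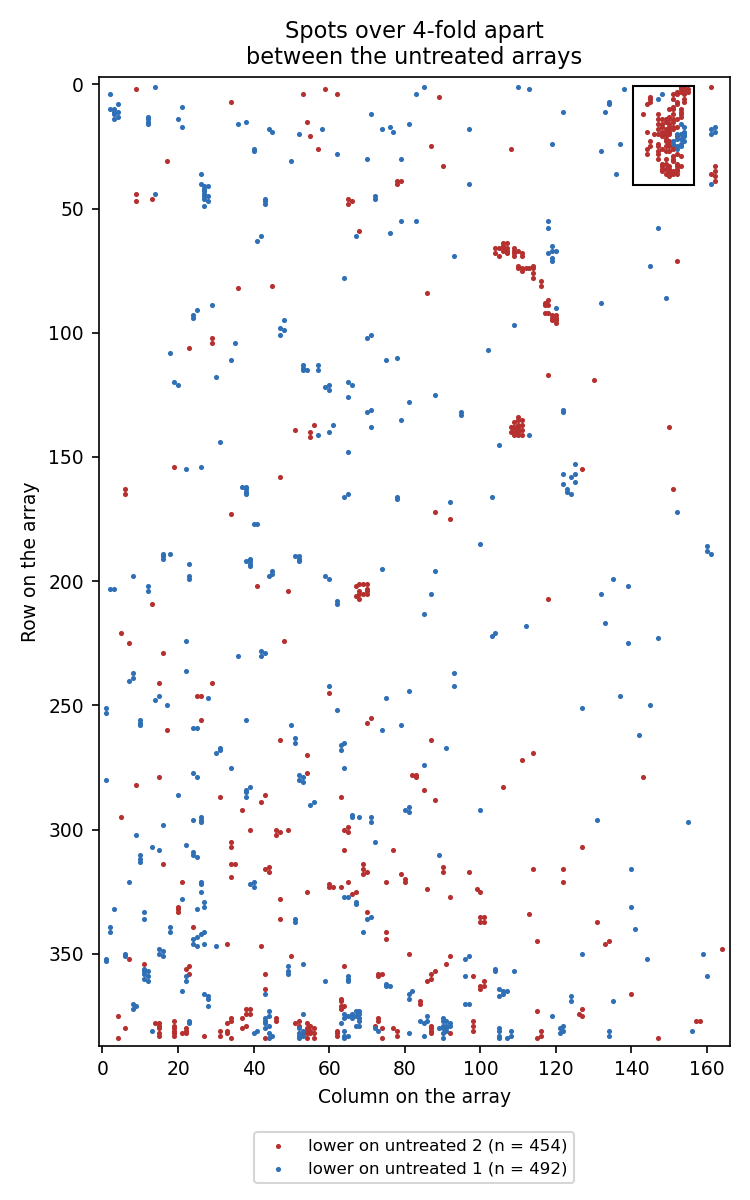
Position on the array (column on the x axis, row on the y axis) of each spot that was marked on at least 1 array and over 4-fold apart between the arrays; red points were lower on untreated 2 (n = 454) and blue points lower on untreated 1 (n = 492). The box marks the area near the corner, which held 108 of the red points and 18 of the blue points. Smaller clusters lie elsewhere.

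Genes of the ribosome made up most of the brightest probes. Of the 30 brightest genes, 16 encode cytosolic ribosomal proteins, among them Rps23 (8.99 and 8.79), Rplp1 (8.81 and 8.78) and Rps18 (8.79 and 8.79). The brightest of all, Lars2, which encodes the mitochondrial leucyl-tRNA synthetase, read 9.53 and 9.57 on its only probe, a mean of 9.55 ± 0.03 (SD, n = 2). Rn18s, the 18S ribosomal RNA, read 9.45 and 9.56, while its second probe read 2.39 and 3.90. S100a4, a calcium-binding protein also called fibroblast-specific protein, read 9.18 and 9.21 (9.20 ± 0.03).

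Further genes among the 30 brightest came from several cellular systems. Myl6, a light chain of non-muscle myosin, read 8.70 and 8.90, and Col1a2, the second chain of type I collagen, 8.57 and 8.75. Grn, the precursor of the secreted growth factor progranulin, read 8.54 and 8.90, and Fth1, the ferritin heavy chain that stores iron, 8.51 and 8.53. Cbr2, a carbonyl reductase, read 8.16 and 8.39. The remaining ones were Aldoa (glycolytic aldolase, 8.30 and 8.32), Rack1 (a ribosome-bound scaffold, 8.27 and 8.22), Cox6a1 (cytochrome c oxidase, 8.26 and 8.17), H3f3b (histone H3.3, 8.13 and 8.25), Chchd2 (8.51 and 8.49) and Lrrc58 (8.61 and 8.79). None of the 30 differed by over 1.5-fold between the arrays. The Lrrc58 value came from 1 of 4 probes, the others reading 3.50 and 3.31, -2.82 and -2.28, and -2.81 and -2.74. The probe of Chchd2 has the same sequence as a probe of another gene, so its signal cannot be assigned to Chchd2 alone.

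Genes that mark fibroblasts were nearly all detected. Of 24 fibroblast markers measured, 22 were detected (against 62.1% of all genes), with a median level of 4.41. Besides S100a4 and both chains of type I collagen, vimentin (Vim, the intermediate filament of mesenchymal cells) read 7.41 and 7.33. Cd248, the stromal surface protein endosialin, read 5.86 and 5.91, the proteoglycan decorin (Dcn) 5.33 and 5.32, and Thy1, a surface glycoprotein used to sort fibroblasts, 4.77 and 5.02. The receptors for platelet-derived growth factor were both detected, Pdgfrb at 4.90 and 4.65 and Pdgfra at 2.19 and 2.03. Fap, the fibroblast activation protein, read -0.28 and -0.79, and Lum, the proteoglycan lumican, -3.43 and -3.86. Tcf21, a transcription factor of several organ fibroblasts, was not well above background on either array, and Nt5e was marked on untreated 2 alone. Nt5e had its brightest probe in the array area named above.

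**Figure D3:**
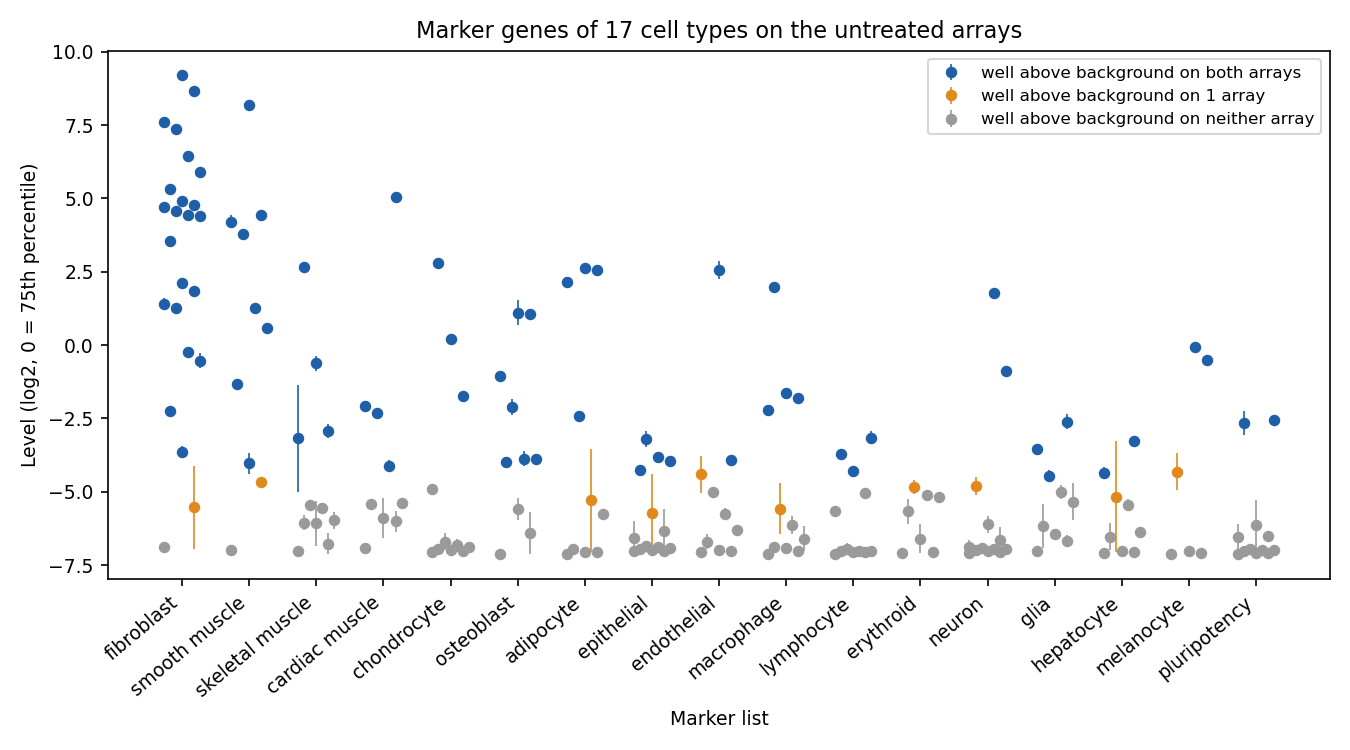
Mean level over the 2 untreated arrays (y axis, log2 with 0 at the 75th percentile) of each marker gene of 17 cell types (x axis); bars span the values of the 2 arrays and colour gives the number of arrays on which the gene was well above background. The median is 4.41 over the fibroblast markers, which reach down below the mark, and -6.53 over the markers of the 10 cell types from epithelial to pluripotency.

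Of 41 collagen genes, 29 were detected (70.7%, near the 62.1% of all genes) and 12 were not well above background on either array. The fibrillar collagens, which build tensile fibres, were detected in 10 of 11 cases, with Col3a1 at 6.97 and 6.99, Col5a1 at 5.22 and 5.16 and Col5a2 at 4.08 and 3.84. Col24a1 was the exception. All 6 chains of type IV collagen, the network of basement membranes, were detected, from Col4a1 (3.86 and 4.15) and Col4a2 (3.79 and 4.19) down to Col4a3 (-3.86 and -3.82). All 3 measured chains of type VI collagen were detected. Col10a1, made by hypertrophic cartilage, Col17a1, made by epithelia, Col14a1 and Col15a1 were among the 12 below the mark.

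All 22 collagen processing genes were detected, with a median level of 3.78. Pcolce, which enhances removal of the procollagen tail, read 8.04 and 8.15, and the collagen chaperone Serpinh1 read 6.74 and 6.34. The prolyl 4-hydroxylase subunits P4hb (6.40 and 6.50), P4ha1 (4.37 and 3.99) and P4ha2 (5.27 and 5.10) and the crosslinking enzymes Lox (4.41 and 4.50) and Loxl1 (5.32 and 5.51) were detected too. The dimmest of the list was P4ha3, at -2.66 and -2.59.

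Of 43 proteoglycan, glycoprotein and matricellular genes, 38 were detected. Sparc, a collagen-binding matricellular protein, read 7.25 and 7.39, osteoglycin (Ogn) 6.87 and 7.04, and perlecan (Hspg2), a basement membrane proteoglycan, 5.90 and 5.64. All 5 measured CCN genes, which encode secreted regulators of adhesion, were detected, with Ccn2 at 7.18 and 6.83 and Ccn1 at 7.14 and 6.82. Ccn1 and Ccn2 are often used as readouts of the transcription coactivators YAP and TAZ. Versican (Vcan) read -0.36 and -0.47 on its brightest of 4 probes. The elastic fibre genes Eln and Mfap2 were marked on untreated 1 alone, and Fbln5, Fmod and Lama2 were not well above background on either array.

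Of 35 matrix proteases and inhibitors, 24 were detected (68.6%, near the 62.1% of all genes), 10 were below the mark and 1, Cst3, was marked on untreated 1 alone. The membrane-bound collagenase Mmp14 read 6.45 and 6.14 and the gelatinase Mmp2, which it activates, 4.37 and 4.72. Other secreted matrix metalloproteinases linked to inflammation or invasion, Mmp8, Mmp9, Mmp10, Mmp12 and Mmp13, were not well above background on either array. Of 16 measured members of the family 9 were detected, against 62.1% of all genes. Mmp3 (stromelysin 1) was detected at -1.97 and -2.73. The tissue inhibitors Timp2 (7.96 and 7.88), Timp3 (5.79 and 5.89) and Timp1 (3.69 and 3.79) were detected and Timp4 was not. The lysosomal cathepsins Ctsl (7.62 and 7.47), Ctsd (6.50 and 6.65) and Ctsb (5.88 and 5.89) were detected, while Ctsk and Ctss, typical of osteoclasts and of antigen-presenting cells, were below the mark. Ctsl is also known as a major secreted product of transformed mouse fibroblasts. In the plasminogen system, the urokinase receptor Plaur 3.46 and 3.75, tissue-type activator Plat 3.32 and 3.00, and urokinase itself, Plau, -4.49 and -3.82.

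Of 38 cytoskeletal genes, 37 were detected, with a median level of 5.48. The actins Acta2 (8.09 and 8.26) and Actg1 (7.77 and 7.90), the tubulin Tuba1c (7.54 and 7.86), the myosin light chain Myl9 (7.02 and 7.32) and the myosin heavy chain Myh9 (7.18 and 7.02) were the brightest besides Myl6. Actb, the cytoplasmic actin used as a loading control in many assays, read 2.01 and 1.21. Tubb2b was the member below the mark. Of 26 integrins, the receptors for matrix, 18 were detected (69.2%, near the 62.1% of all genes), led by Itgb5 (6.23 and 6.02), Itgb1 (4.57 and 4.55), Itgav (2.98 and 2.63) and the fibronectin receptor subunit Itga5 (1.92 and 2.44). Leukocyte integrin subunits were on either side, with Itgb2 (-3.57 and -3.43) and Itgal (-3.87 and -3.30) detected and Itgam, Itgax and Itgad below the mark. Of 11 cadherins, the calcium-dependent adhesion molecules, 4 were detected, namely Cdh13 (2.10 and 2.36), Cdh11 (1.88 and 1.90), Cdh2 (N-cadherin, 1.28 and 1.01) and Cdh10 (-4.52 and -4.45). Cdh1, the E-cadherin of epithelia, was not well above background. β-catenin (Ctnnb1) read 4.16 and 4.13.

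Transcription factors of the mesenchymal state were detected in 16 of 18 cases. Prrx2 read 5.48 and 5.73, Prrx1 4.61 and 4.80, Foxc1 4.79 and 4.65, Snai2 4.32 and 3.59, and Twist1 1.44 and 1.08. The YAP and TAZ genes Yap1 (1.82 and 2.13) and Wwtr1 (4.80 and 4.54) were detected, as were 3 of 4 TEAD genes, whose proteins they bind. Tead1 and Snai3 were below the mark.

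Of 61 markers of other mesenchymal lineages 30 were detected (49.2%, against 62.1% of all genes). Among smooth muscle markers 8 of 10 were detected, with Acta2 as above, Actg2 at 4.34 and 4.51, Tagln at 3.99 and 4.42 and Lmod1 at 3.78 and 3.77, while the master regulator Myocd was below the mark and Cnn1 was marked on untreated 2 alone. Striated muscle actins were detected, Actc1 of the heart at 4.88 and 5.20 and Acta1 of skeletal muscle at 2.52 and 2.76, but the myogenic factors Myod1, Myog, Myf5 and Myf6 were not well above background on either array. Skeletal muscle markers were detected in 4 of 11 cases and cardiac ones in 4 of 9, but in 9 and 8 cases with the software's weaker mark, for signal significantly above background. Tnnt3, counted among the 4, was far apart between the arrays.

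Bone, cartilage and fat cell markers were detected in part. Runx2, the factor that commits cells to bone, read 1.24 and 0.85 and Sp7, which acts after it, was below the mark. Of 10 osteoblast markers 7 were detected (70%, near the 62.1% of all genes). Besides Runx2, these were Spp1 (1.53 and 0.67), Dlx5 (-0.96 and -1.17) and alkaline phosphatase (Alpl, -1.84 and -2.38). Sost (-3.72 and -4.03), Bglap (-4.12 and -3.62) and Dmp1 (-4.16 and -3.82) were dimmer but also detected. Ibsp and Phex were below the mark, like Sp7. Sox9, the cartilage factor, read 0.24 and 0.17, its target Col2a1 2.69 and 2.92, and Comp -1.83 and -1.64. The other cartilage markers, among them Acan, Col10a1, Matn1 and the partners Sox5 and Sox6, were below the mark. Thus 3 of 11 were detected (27.3%, against 62.1% of all genes). Pparg, the central fat cell factor, read 2.24 and 2.09, Fabp4 2.73 and 2.40 and Lpl 2.63 and 2.59. Adipoq, Lep, Plin1, Cfd and Cidec, products of mature fat cells, were below the mark. Of 10 fat cell markers 4 were detected (40%, against 62.1% of all genes).

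Markers of unrelated cell types were mostly not detected. Over 10 such lists, 24 of 103 genes were detected, 7 were marked on 1 array and 72 on neither, and the median level was -6.53. The detected share was 23.3%, against 62.1% of all genes. With the weaker mark it was 44.7% (46 of 103), against 72.3% of all genes. Of 14 epithelial markers 4 were detected, the keratins Krt8 (-3.47 and -2.94), Krt14 (-3.97 and -3.66) and Krt5 (-4.11 and -3.80) and the tight junction gene Cldn3 (-4.36 and -4.14). Their mean levels lay below -3.06, the 10th percentile of detected genes, and the lowest marked levels were -4.81 and -4.80. Of 10 endothelial markers, Flt1, a receptor for vascular endothelial growth factor, read 2.87 and 2.26 and Tek -3.95 and -3.90, whereas the defining genes Pecam1, Cdh5 and Kdr were below the mark.

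Blood cell markers gave a similar result. Of 11 macrophage markers, Cd14 (1.84 and 2.13), Lyz2 (-1.58 and -1.71), Mpeg1 (-1.74 and -1.89) and Cd68 (-2.31 and -2.15) were detected, while Ptprc, the pan-leukocyte gene CD45, was below the mark on all 3 of its probes, as were Spi1, Adgre1 and Itgam. Of 12 lymphocyte markers 3 were detected, among them Lck (-3.39 and -2.95) and Cd3e (-3.77 and -3.69). No erythroid marker of 7 was detected on both arrays, and Epor was marked on untreated 2 alone. Neuronal markers were detected in 2 of 13 cases (Map2 at 1.92 and 1.63, Tubb3 at -0.80 and -0.99), glial markers in 3 of 9, hepatocyte markers in 2 of 9 and melanocyte markers in 2 of 6 (Mlana at -0.11 and -0.05, Mitf at -0.52 and -0.48). Albumin (Alb) read -7.06 and -3.28 and was marked on untreated 2 alone. Of 12 pluripotency and germ cell markers, Dppa5a (-2.54 and -2.57) and Utf1 (-3.05 and -2.26) were detected, and Pou5f1, Nanog and Sox2, the core factors of embryonic stem cells, were below the mark.

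**Figure D4:**
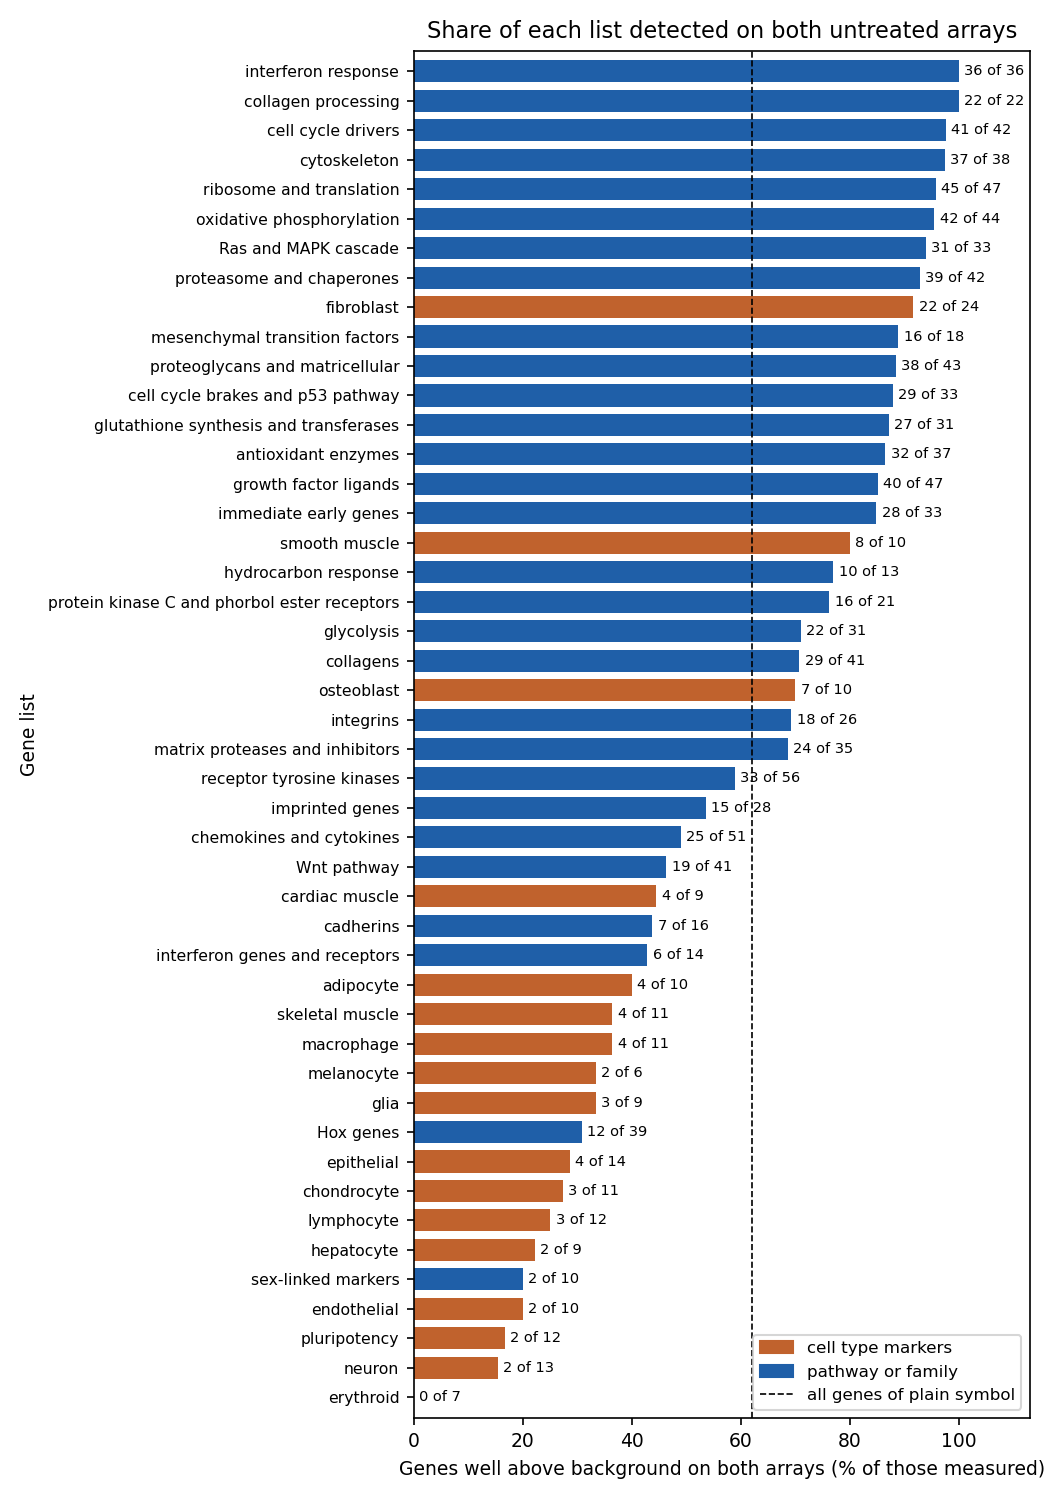
Share of the measured genes of each of 46 lists (y axis) that was well above background on both untreated arrays (x axis, %), with counts beside the bars; orange bars are cell type markers and blue bars pathways or families. The dashed line is the share over all 19654 genes (62.1%); interferon response genes and collagen processing genes reach 100%, and 0 of 7 erythroid markers are counted.

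Hox genes, which record the position of a cell's origin along the body axis, were detected from a single cluster in the main. Of 39 measured, 12 were detected (30.8%, against 62.1% of all genes), 9 of them among 11 genes of the Hoxa cluster. Hoxa7 read 4.98 and 5.27, Hoxa2 0.55 and 0.51, Hoxa4 -0.04 and 0.53, Hoxa5 0.03 and 0.26, and Hoxa10 -0.90 and -1.11. Hoxa11 and Hoxa13, at the end of the cluster that specifies the most distal and caudal structures, were below the mark. The Hoxb cluster had 2 of 10 detected (Hoxb3 at -2.59 and -2.14, Hoxb9 at -3.77 and -3.42) and the Hoxc cluster 1 of 9 (Hoxc4 at -2.30 and -2.16), with Hoxc5 marked on untreated 2 alone. None of 9 Hoxd genes was detected on either array with the well-above-background mark.

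**Figure D5:**
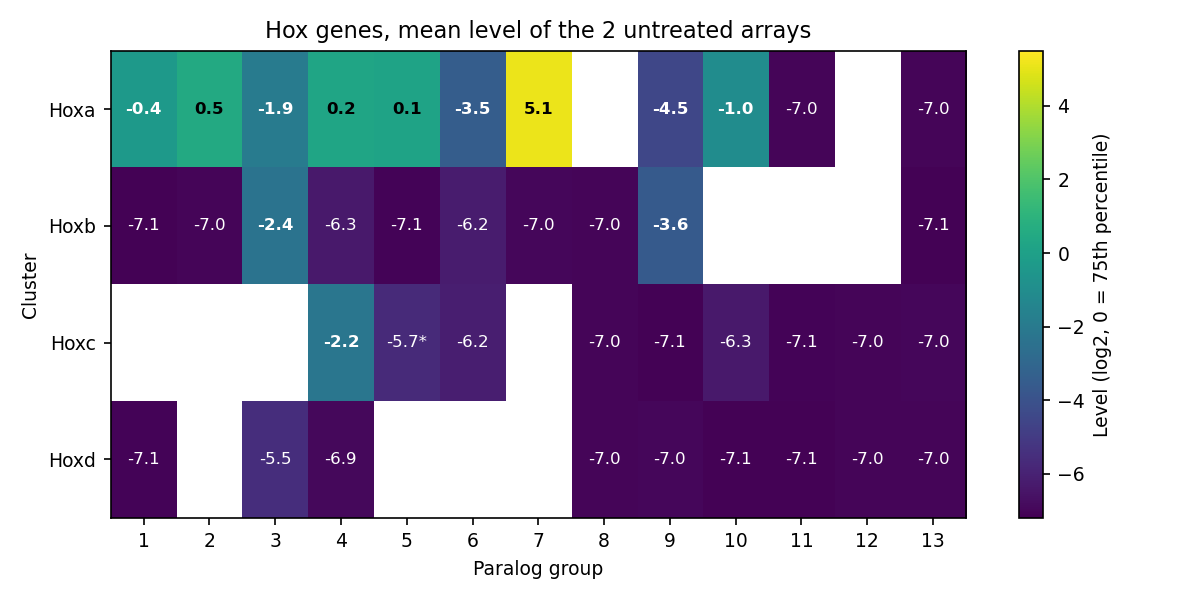
Mean level over the 2 untreated arrays (colour and printed value, log2 with 0 at the 75th percentile) of 39 Hox genes by cluster (y axis) and paralog group (x axis); bold values were well above background on both arrays, the starred value on 1 array, and blank cells were not measured or do not exist. The Hoxa row holds 9 of the 12 detected genes, with Hoxa7 at 5.1.

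Imprinted genes, which are expressed from the copy of 1 parent, were detected in 15 of 28 cases (53.6%, against 62.1% of all genes). Sgce read 5.86 and 5.79, the growth-restraining receptor Igf2r 4.19 and 3.90, and Grb10, an adaptor that inhibits insulin signalling, 3.99 and 4.06. Airn, the noncoding antagonist of Igf2r, read 0.57 and 0.23 on the brightest of 5 probes, all marked on both arrays. Several other imprinted genes were dim or below the mark. The fetal growth factor Igf2 read -2.59 and -3.50 and the linked noncoding H19 -3.84 and -4.13, and Meg3, Dlk1, Rtl1 and Dio3, which lie together in another imprinted domain, were below the mark, Meg3 on all 5 of its probes. Peg3, Mest, Nnat and Cdkn1c were also below the mark.

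Xist, the noncoding RNA of the inactive X chromosome, was marked on both arrays by all 4 of its probes, and its brightest probe read 3.74 and 3.51. Its antisense partner Tsix read -3.79 and -3.60; the sources used here do not show how far probes of overlapping transcripts separate them. Of 8 measured genes of the Y chromosome, none was detected on both arrays. Usp9y was marked on untreated 1 alone (-3.77 and -7.11).

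The transforming agents act through known proteins, whose genes were measured at rest. MCA is a ligand of the aryl hydrocarbon receptor, which with its partner ARNT switches on cytochrome P450 genes that turn the hydrocarbon into DNA-binding products. Of 13 genes of this response 10 were detected (76.9%, against 62.1% of all genes). Ahr read 2.01 and 1.09 and Arnt -2.74 and -2.92. Cyp1b1, the P450 typical of mesenchymal cells, read 4.50 and 4.92, whereas Cyp1a1, Cyp1a2 and the feedback repressor Ahrr were not well above background on either array. The receptor target Tiparp read 2.80 and 2.56, and the detoxifying enzymes Ephx1 and Nqo1 read 3.81 and 4.20, and 2.46 and 2.45.

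TPA binds the C1 domain of protein kinase C isoforms and of a few other proteins in place of diacylglycerol. Of 7 isoforms of the phorbol-responsive classes, 4 were detected, against 62.1% of all genes. Among them were Prkcd at 2.79 and 2.88, Prkca at -0.22 and -0.08, and Prkce at -1.21 and -0.95. Prkcb, Prkch and Prkcq, which are prominent in blood cells or epithelia, were below the mark. The atypical isoforms Prkci (2.89 and 2.51) and Prkcz (-1.57 and -1.20), which do not respond to phorbol esters, were detected. All 3 protein kinase D genes were detected, between 0.91 and 2.09, and of the RasGRP exchange factors Rasgrp3 read 1.49 and 1.21.

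The Ras to MAP kinase cascade, which carries growth signals from receptors to the nucleus, was detected in 31 of 33 members. Among the Ras genes, Hras read 2.64 and 2.99 and Nras 1.58 and 1.64. Of the Raf kinases, Araf read 2.12 and 1.98 and Braf 1.69 and 1.74. All 7 MAP kinase kinases were detected, with Map2k1 at 2.62 and 2.64 and Map2k2 at 3.29 and 3.63. The ERK gene Mapk3 read 3.98 and 4.46. Of the stress-activated kinases, Mapk14 (p38α) read 3.56 and 3.76, Mapk8 (JNK1) -2.15 and -2.35, and Mapk9 (JNK2) -0.47 and -0.75, while Mapk10, the JNK of neurons, and Mapk13 were below the mark. The GTPase-activating genes Nf1 (0.93 and 0.99) and Rasa1 (0.68 and 0.73), which turn Ras off, were detected.

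Receptor tyrosine kinases were detected in 33 of 56 cases (58.9%, against 62.1% of all genes). Besides the receptors for platelet-derived growth factor, the collagen receptors Ddr2 (4.42 and 4.42) and Ddr1 (3.98 and 3.48), the epidermal growth factor receptor Egfr (3.73 and 3.35) and the insulin-like growth factor receptor Igf1r (3.09 and 3.02) were among the brightest. All 4 members of the Egfr family were detected, Erbb3 the dimmest at -2.74 and -3.60. Met read 1.91 and 1.95, Axl 1.86 and 2.34 and Fgfr1 1.32 and 1.81. Kit, Ret, Alk, Ros1, Ntrk2, Ntrk3, Flt3 and Musk, which serve germ cells, neurons, blood or muscle, were below the mark, as were 6 of 13 Eph receptors.

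Growth factor genes were detected in 40 of 47 cases. Csf1, the macrophage growth factor, read 5.20 and 5.13, Pdgfa 4.85 and 4.99, Vegfb 4.76 and 4.61, Tgfb3 4.03 and 4.17 and Bmp4 3.51 and 3.69. Igf1 read -1.10 and -0.94 and Hgf, the ligand of Met, -2.21 and -2.03. The Egfr ligands Hbegf (2.29 and 2.52) and Ereg (2.65 and 2.14) and the ligands Tgfa (-1.89 and -2.50), Btc (-3.32 and -4.06), Areg (-3.91 and -3.77) and Egf (-3.39 and -3.77) were all detected. Fgf2, Fgf9, Bmp2, Bmp6 and Gdf6 were not well above background on either array.

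In the Wnt pathway 19 of 41 genes were detected (46.3%, against 62.1% of all genes). Of 10 Frizzled receptors 9 were detected, led by Fzd2 (4.43 and 4.59) and Fzd1 (2.93 and 2.75), and the coreceptors Lrp5 and Lrp6 read 3.15 and 2.71, and 3.84 and 3.53. Of 19 Wnt ligands 4 were detected, Wnt9a (0.47 and 0.32), Wnt5b (-0.05 and 0.02), Wnt11 (-4.41 and -4.15) and Wnt7b (-4.48 and -4.26), and 4 more were marked on 1 array. Wnt10a, 1 of these, read -7.13 and -2.98. Axin2, a general target of β-catenin signalling, was below the mark, and the secreted inhibitors Sfrp1 (3.08 and 3.08) and Sfrp2 (-0.76 and -0.64) were detected, while Dkk1, Dkk2, Dkk3 and Wif1 were not.

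Glutathione genes were measured as the resting state of the system that diethyl maleate depletes. Of 31 measured, 27 were detected. The ligase subunits Gclc and Gclm, which make the first step of synthesis, read 1.11 and 1.30, and -1.28 and -1.05, and the synthetase Gss read 1.25 and 1.52. Slc7a11, the light chain of the cystine importer, read -4.12 and -4.67, just above the mark, and the value of its partner Slc3a2 rests on the array area named above. Of glutathione S-transferases, Gstm1 (6.96 and 7.01) and Gstp1 (6.68 and 6.92) were the brightest. Of 7 mu class genes 6 were detected, and of 4 alpha class genes Gsta4 (2.78 and 2.92), Gsta3 (-2.75 and -2.68) and Gsta1 (-3.93 and -4.45). Near-identical members of these classes can share signal. Chac1, which degrades glutathione, read 4.04 and 4.85, and Ggt1, Gstk1, Gsta2 and Gstm4 were below the mark.

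Antioxidant genes were detected in 32 of 37 cases, with a median level of 3.89. Peroxiredoxin 2 (Prdx2) read 6.53 and 6.71, thioredoxin (Txn1) 6.03 and 6.09, superoxide dismutase 1 (Sod1) 6.36 and 6.46, and the lipid peroxide reductase Gpx4 6.50 and 6.76. Nfe2l2, which encodes the electrophile-sensing factor NRF2, read 4.91 and 4.53, and Keap1, which holds it back, 3.60 and 3.67. The NRF2 targets Hmox1 (4.21 and 4.85), Txnrd1 (5.39 and 4.81) and Srxn1 (3.34 and 3.42) were detected. The metallothioneins Mt1 (3.76 and 5.45) and Mt2 (5.83 and 6.96) differed more between the arrays than most genes, with SDs of 1.20 and 0.80 against a median of 0.14. Gpx3, Gpx5, Gpx6 and Gpx7 were below the mark, and Gpx2 was marked on untreated 2 alone.

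All 36 interferon response genes measured were detected, with a median level of 2.12. These genes encode antiviral proteins and are induced by interferon through its receptors. Ifi27 read 6.88 and 6.88, Ifitm3 5.96 and 6.35, Bst2 (tetherin) 5.78 and 5.70, Ifit3 4.60 and 4.80 and Isg15 3.37 and 3.90. The transcription factor genes Stat2, Irf9 and Irf7 read 2.14 and 1.71, 1.50 and 1.54, and 0.34 and 1.04. The dimmest was Mx1, at -4.25 and -2.55. All 5 receptor subunits for interferons were detected, from Ifngr1 (4.59 and 4.12) to Ifnar1 (1.97 and 1.39). Of the interferon genes themselves 8 of 9 were not well above background on either array, among them Ifnb1, which fibroblasts can make, and Ifna1, Ifna2, Ifna4 and Ifng. The ninth, Ifnz, read 0.44 and 0.50.

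Of 51 chemokine, cytokine and prostaglandin synthesis genes, 25 were detected (49.0%, against 62.1% of all genes). Ccl2, which attracts monocytes, read 7.22 and 7.68, Cxcl1, which attracts neutrophils, 5.33 and 5.78, Ccl7 4.88 and 5.01, and the cytokine Mif 6.35 and 6.68. Cxcl12, the stromal ligand of CXCR4, read 3.97 and 4.01, and Il6 0.50 and 0.34. Tnf, Il1a, Il1b, Il10, Ccl3, Ccl4, Cxcl2 and Cxcl9 were not well above background on either array. Il4, also below the mark, had its only probe in the array area named above. The cyclooxygenases Ptgs1 and Ptgs2 read 4.61 and 4.50, and -0.02 and 0.01.

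Immediate early genes, which respond to serum and mitogens within minutes, were detected in 28 of 33 cases. Junb read 7.70 and 7.66, Egr1 6.15 and 6.21, Ier2 6.32 and 5.87, Nr4a1 6.10 and 6.87 and Klf2 5.86 and 6.78. Fos read 2.45 and 3.24, Jun 2.61 and 2.48 and Myc 2.16 and 1.54. Fosb (-1.21 and 0.51) and Fosl1 (-0.31 and 0.87) were higher on untreated 2 by 1 log2 unit or more. The feedback inhibitors Dusp1 (5.28 and 4.50), Dusp6 (3.59 and 3.51) and Spry2 (2.31 and 2.03) were detected. Mycn, Mycl, Egr3 and Nr4a3 were below the mark, and Spry4 was marked on untreated 1 alone.

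Genes that drive the cell cycle were detected in 41 of 42 cases, the exception being Ccna1, a cyclin of germ cells. The D cyclins read 4.88 and 4.86 (Ccnd2), 3.68 and 3.99 (Ccnd3) and 3.45 and 3.72 (Ccnd1), and their kinase Cdk4 read 3.77 and 4.21. The proliferation markers Pcna (4.65 and 4.54) and Mki67 (3.63 and 3.70) were detected, as were all 6 subunits of the replicative helicase, Mcm2 to Mcm7. Mitotic genes were represented by Birc5 (4.47 and 4.57), Aurka (3.34 and 3.36) and Plk1 (2.62 and 2.96).

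Of 33 inhibitors of the cycle and genes of the p53 pathway, 29 were detected and 4 were not. Cdkn2a, which encodes the tumour suppressors p16 and p19ARF, and its neighbour Cdkn2b, which encodes p15, were below the mark on both arrays. The other INK4 genes Cdkn2c and Cdkn2d read 4.09 and 4.37, and 2.50 and 2.37. Cdkn1a (p21) read 3.60 and 4.11, Cdkn1b (p27) 2.32 and 2.30, and Cdkn1c (p57) was below the mark, as was the apoptosis gene Pmaip1. Trp53 read 0.52 and 1.25 and Rb1 0.99 and 0.61. The p53 targets Mdm2 (2.70 and 2.84), Bax (3.35 and 3.74), Bbc3 (2.92 and 2.74) and Ccng1 (2.70 and 2.82) were detected. Tert, the catalytic subunit of telomerase, read -3.99 and -4.05.

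Of 31 glycolysis genes 22 were detected (71.0%, near the 62.1% of all genes), with Gapdh at 7.70 and 7.91, Pgam1 at 6.92 and 6.91, Ldha at 6.90 and 6.62, and the transporter Slc2a1 at 4.21 and 3.62. The probe of Gapdh shares its exact sequence with a probe of another gene. Hk1 read 5.40 and 5.39 on the brightest of 6 probes, of which 1 was below the mark. Of 7 isozymes and transporters of liver, blood or testis none was detected on both arrays, among them Hk3, Pgk2, Ldhc, Slc2a2 and Pklr. Forms typical of muscle, fat or nerve were on either side of the mark. Eno3 (4.68 and 4.76), Eno2 (0.98 and 0.89), Pgam2 (-1.53 and -1.57) and Slc2a4 (-3.92 and -4.29) were detected. Aldoc was marked on untreated 2 alone, and Slc2a3 was below the mark. In oxidative phosphorylation 42 of 44 genes were detected, and of the rest Cox4i2 was below the mark and Ndufs1 was marked on untreated 1 alone.

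All 76 cytosolic and all 78 mitochondrial ribosomal protein genes were detected, with median levels of 7.48 and 2.84, and 37 of 39 proteasome subunit genes were. The 2 not detected were the thymus subunit Psmb11 and the testis subunit Psma8. The interferon-inducible proteasome subunits Psmb8 (2.06 and 2.24), Psmb9 (2.15 and 2.24) and Psmb10 (3.63 and 4.04) were detected. Among chaperones, the endoplasmic reticulum chaperone Hspa5 (7.17 and 7.29) and the constitutive Hspa8 (6.81 and 7.10) were the brightest, and Hspa1a, which is induced by heat, read -2.17 and -2.41. Rpl3l and Eef1a2, muscle and nerve forms of translation genes, were below the mark.

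Of the 6766 genes on neither array, 1412 (20.9%) belonged to 7 families that serve mainly other tissues. These families held 1618 of all 19654 genes measured. The share detected over all genes, 62.1%, is the background for the counts that follow. Of 1056 olfactory receptor genes 78 were detected (7.39%) and 926 were below the mark on both arrays. The brightest was Olfr571, at 1.56 and 1.76. Vomeronasal receptors gave 21 of 312, taste and trace amine receptors 4 of 53, and killer cell lectin-like receptors 1 of 31 (Klrg2, -2.07 and -1.98). Defensins gave 4 of 59, with Defa3 at 2.29 and 2.96. Keratins gave 11 of 53, Krt7 the brightest at -1.60 and -1.69, and keratin-associated proteins of hair 13 of 54. Krtap4-6, the brightest of these, read 5.07 and 5.47. Krtap3-1 read 1.45 and 2.02 on 1 probe, and its other 2 probes were below the mark. Names in these families were picked by their values.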

How the data were processed

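Each sample, 500 ng of RNA primed with oligo-dT and carrying Cy3, had its own custom Agilent array, per the labels. Spot intensity values were deposited as scanner output. Feature Extraction 10.7.3.1 had already subtracted background and detrended them, per the file headers, and its well-above-background mark used a multiplier of 13. A second deposited file gives log2 values, with column medians of -4.39 and -4.35. At least 99.98% of them lay within 0.01 of log2 signal minus the array's 75th percentile, apart from a constant, so scale and centring are settled from the values. These log2 values of the authors served as an alternative.

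Of 62976 spots, 1319 controls were left out, as were spots with an outlier mark (31 and 68). Signals of 701 and 747 marked the 75th percentile. Replicate spots were averaged to 61307 probes. Of these, 40628 gene probes got names from RefSeq's table for GRCm38.p6: accessions named 28136, symbols 4982 and synonyms 1406, while 6104 stayed as the files have them, and 20679 NONCODE probes were not used here. The probes carry no coordinates in the files.

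No test was made: there is 1 group and no contrast. The named genes are the 30 brightest of plain symbol, the 10 detected genes furthest apart between the arrays, and members of 46 lists. Members and lists were chosen with earlier results of these data known. The code was tested on simulated data. Alternatives used limma 3.58.1 in R 4.3.3, and the rest Python 3.11.15. Some members of the lists are counted but not reported here by name.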

Additional observations from a re-analysis of the deposited data

How the results depend on the processing

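The count of genes well above background on both arrays, 12211, became 12569 when untreated 2 alone decided and 12530 when untreated 1 alone did, 14209 with the software's weaker mark for signal significantly above background, 12202 when the brightest probe decided and 12222 with outlier-marked spots kept. The count of genes not well above background on either array, 6766, was lower with the weaker mark (3764) and higher when clone and predicted names were included (11489, and 16522 detected). With 1 array alone it was 7085 and 7124. For the list counts, 788 of 1118 genes were detected, and 886 with the weaker mark, which moved 15 of 56 list and family counts by over 1.5 times, all of them lists of other cell types or silent families. These include olfactory receptors (228), keratins (21), cardiac markers (8) and endothelial markers (6). With 1 array alone, 2 of these counts moved so far, the erythroid markers (1 without untreated 1) and the killer cell lectin-like receptors (2 and 3). Inclusion of all names gives no other value for the lists. Of the 30 brightest genes, 28 stayed so with normexp, 30 with quantile normalization, with the authors' values and with the percentile over detected probes, 22 with the mean of all probes of a gene, and 27 and 29 on 1 array. The percentile over detected probes lowered every level by 2.37, and normexp moved the median of detected genes by -0.04. The SD of the difference between arrays was 0.28 with normexp, 0.34 with the other scalings, 0.62 with no filter on dim probes, and, in alternatives chosen after seeing the data, 0.32 without the array area and 0.32 without 4 genes over 16-fold apart. The array area changed no list count by over 1.5 times. No paired analysis was possible because the results come from no test between groups. Values near the background mark have no reliable order.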

Other observations

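The base composition of promoters, which the choice of arrays did not use, was described for detected and undetected genes. Promoter sequences of 300 bases, from 250 before to 50 after the start, were taken from RefSeq (GRCm38.p6) for 15516 of the genes. The 9748 detected genes had a median of 21 CG dinucleotides and the 5254 genes on neither array a median of 4, or 6 without chemosensory receptors. The share of promoters with at least 10 CG dinucleotides was 80.8% for detected genes, 29.1% for those on neither array (36.4% without chemosensory receptors) and 61.9% over all 15516 matched genes. CG-rich promoters are typical of genes used in most tissues. Within the detected genes, that share was 61.0% among the dimmest 2437 and 88.6% among the brightest 2437. The letters TATAAA, searched on both strands, were present in 7.86% of promoters of detected genes, 21.3% of those on neither array (16.6% without chemosensory receptors), 12.7% of all matched genes and 14.2% of all 27025 promoters of the table. Among 102 genes with a level above 7 they were present in 17.6%. A match is a description of these letters and was not tested for function.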
